A study of Rattus norvegicus and Mus musculus with 251 samples.

Results

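The genes described here are 9 genes of the striatal projection neuron and its dopamine receptors, Drd1, Drd2, Drd3, Adora2a, Ppp1r1b, Tac1, Gpr6, Rarb and Isl1. They were picked by name from the 46078 gene rows of the mouse read count table, and 9 of 9 were found. The study measured RNA in mice and rats exposed to opioids, and the rat samples were not analysed here. The mouse set has 62 libraries of total RNA from tissue punches of 0.5 mm, 32 from the nucleus accumbens (NAc, the ventral striatum) and 30 from the prefrontal cortex (PFC). All mice carry the strain label C57BL6J, an inbred laboratory strain, and no allele or transgene is labelled. Every mouse drank a saline or a morphine solution, and the groups differ in what was drunk and in when tissue was taken. The saline group (Sal) has 7 NAc and 6 PFC libraries, and chronic morphine (Chronic mor) has 8 and 8. Tissue taken 24 h after morphine (Mor + 24h) gave 9 and 9 libraries, and tissue taken 2 weeks after it (Mor + 2W) gave 8 and 7. Both sexes are in every group, with 3 to 5 libraries for each sex. Ages are not in the labels, and the cell type label reads neuron although a punch holds every cell of the tissue. The labels do not say whether libraries came from separate mice, so each p-value measures the spread between these libraries, which may be technical.

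Most neurons of the striatum are GABAergic projection neurons in 2 intermingled classes. Direct-pathway neurons carry the dopamine receptor Drd1 and the neuropeptide gene Tac1, while indirect-pathway neurons carry Drd2, the adenosine receptor Adora2a and the orphan receptor Gpr6. Dopamine raises cAMP through Drd1 and lowers it through Drd2 and Drd3, and Ppp1r1b encodes the phosphoprotein that relays this signal to a protein phosphatase. Rarb, a nuclear receptor for retinoic acid, and Isl1, a homeodomain factor that is also known from striatal cholinergic interneurons, act in the development of these cells. In a bulk punch a lower level may mean fewer cells of a type or less RNA per cell, and these cannot be told apart.

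NAc libraries held 22387500 to 43963300 counts assigned to genes, with a median of 32159500, and PFC libraries had a median of 29999900. The PFC library with number 10, from a female at 2 weeks, stood apart with 5182600 counts, 77.1% of genes at 0 (at most 60.6% elsewhere in PFC) and 86.4% even numbers among its counts of 2 to 21. It was at 0 for 7 of the 9 genes, so values that rest on it are marked or also given without it. The cortical list of 8 excitatory neuron genes was lower in NAc than in PFC for 8 of 8 in saline mice, and 10 of 10 striatal reference genes were higher.

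The first question was how the 9 genes differ between the regions. In saline mice edgeR called 9 of 9 higher in NAc, where 25% of the 16562 genes tested were called higher in that direction, and over all treatments it again called 9 of 9 (36.5% of 19266 genes). Of the 9, Drd1, Adora2a, Ppp1r1b, Tac1, Gpr6 and Rarb reached the low-count limit in PFC saline libraries as well. Drd2, Drd3 and Isl1 reached it in NAc alone and so had to differ, and their folds are given as description. The log2 differences of the 6 genes that reached it in both regions ran from 3.05 (Rarb) to 5.77 (Adora2a) in saline mice. The median of all genes tested was 0.04.

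Drd1 (ENSMUSG00000021478; GRCm38 chromosome 13, 54051183 to 54055705) is a protein-coding gene that overlaps no other annotated gene. In saline mice it had 3.18, 6.88 and 7.66 log2 CPM (counts scaled to the size of the library) in NAc as the lowest, median and highest of 7 libraries. In PFC the same values were 2.75, 2.98 and 3.22 over 6 libraries. One NAc library, number 6, lay inside the PFC range and the other 6 lay above it. The log2 difference was 3.71 ± 0.52 (SE, edgeR adjusted p = 3.0e-05), a 13-fold difference. Tac1 (ENSMUSG00000061762; chromosome 6, 7554879 to 7565834), the precursor gene of substance P, ran from 5.53 to 7.41 log2 CPM in NAc with a median of 6.95. PFC saline libraries ran from 2.45 to 3.59, so the regions did not overlap. Its log2 difference was 3.78 ± 0.34 (SE, edgeR adjusted p = 2.9e-07). Isl1 (ENSMUSG00000042258; chromosome 13, 116298281 to 116309689) had 584 to 928 counts in each NAc saline library and no count in any of the 30 PFC libraries. With 3 counts over the group as the floor, Isl1 was at least 1185-fold higher in CPM in NAc of saline mice. Over all treatments the bound was at least 5162-fold. Thus Drd1 separated the regions in all but 1 saline library. Isl1 showed no overlap, but it reached the low-count limit in NAc alone and so had to differ.

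Among the genes of indirect-pathway neurons, Drd2 (ENSMUSG00000032259; chromosome 9, 49340627 to 49408177) had 3.44 to 6.66 log2 CPM in NAc saline libraries with a median of 5.81. PFC saline libraries ran from -1.92 to 1.26 with a median of -1.45, which is 5 to 69 counts per library. The pooled level in CPM was 81.8-fold higher in NAc. Leaving out number 5, the PFC saline library with 69 counts, moved the fitted log2 difference of Drd2 from 6.33 to 7.49. Adora2a (ENSMUSG00000020178; chromosome 10, 75316877 to 75334784) ran from 2.71 to 7.96 log2 CPM in NAc saline libraries, with a median of 7.39. In PFC it ran from 1.15 to 1.69. The log2 difference was 5.77 ± 0.68 (SE, edgeR adjusted p = 5.2e-06). Gpr6 (ENSMUSG00000046922; chromosome 10, 41069977 to 41072285), a receptor with high activity in the absence of ligand, had 2.19 to 6.24 log2 CPM in NAc saline libraries with a median of 5.49. It had 0 to 75 counts in PFC saline libraries. Its log2 difference was 4.58 ± 0.67 (SE, edgeR adjusted p = 4.7e-05). The 3 indirect-pathway genes were nearer to absence in PFC than Drd1 and Tac1. Over all 30 PFC libraries, of every treatment, the medians were 0.15 RPKM (CPM per kilobase of exon) for Drd2, 0.92 for Adora2a and 1.02 for Gpr6. They were 1.81 for Drd1 and 1.94 for Tac1.

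Drd3 (ENSMUSG00000022705; chromosome 16, 43754026 to 43822932), a receptor enriched in the ventral striatum, overlaps the microRNA gene Gm25996 on its own strand. It ran from -1.13 to 2.60 log2 CPM in NAc saline libraries and had 0 counts in all 6 from PFC. Its pooled level was 3.10 CPM in NAc, and 3 counts over the PFC group would be 0.0177 CPM. Over all 30 PFC libraries it had 6 counts, of which 4 were in library 25 and 2 in library 9. Ppp1r1b (ENSMUSG00000061718; chromosome 11, 98348404 to 98357796) had the smallest gap but 1: 5.71 to 10.72 log2 CPM in NAc saline libraries with a median of 9.89, and 6.38 to 6.73 in PFC. NAc library 6 was below every PFC saline library. The log2 difference was 3.19 ± 0.54 (SE, edgeR adjusted p = 0.00017). Rarb (ENSMUSG00000017491; chromosome 14, 16430839 to 16819156) ran from 2.92 to 6.58 in NAc with a median of 5.85 and from 2.34 to 2.98 in PFC, with library 6 inside the PFC range. Its log2 difference of 3.05 ± 0.46 (SE, edgeR adjusted p = 6.1e-05) was the lowest of the 9. Rarb overlaps Top2b and Gm48162, and Ppp1r1b overlaps 1700003D09Rik, each on the opposite strand. Whether the counting used strand is not given in the sources used here, so reads of these overlapping genes cannot be told apart.

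**Figure D1:**
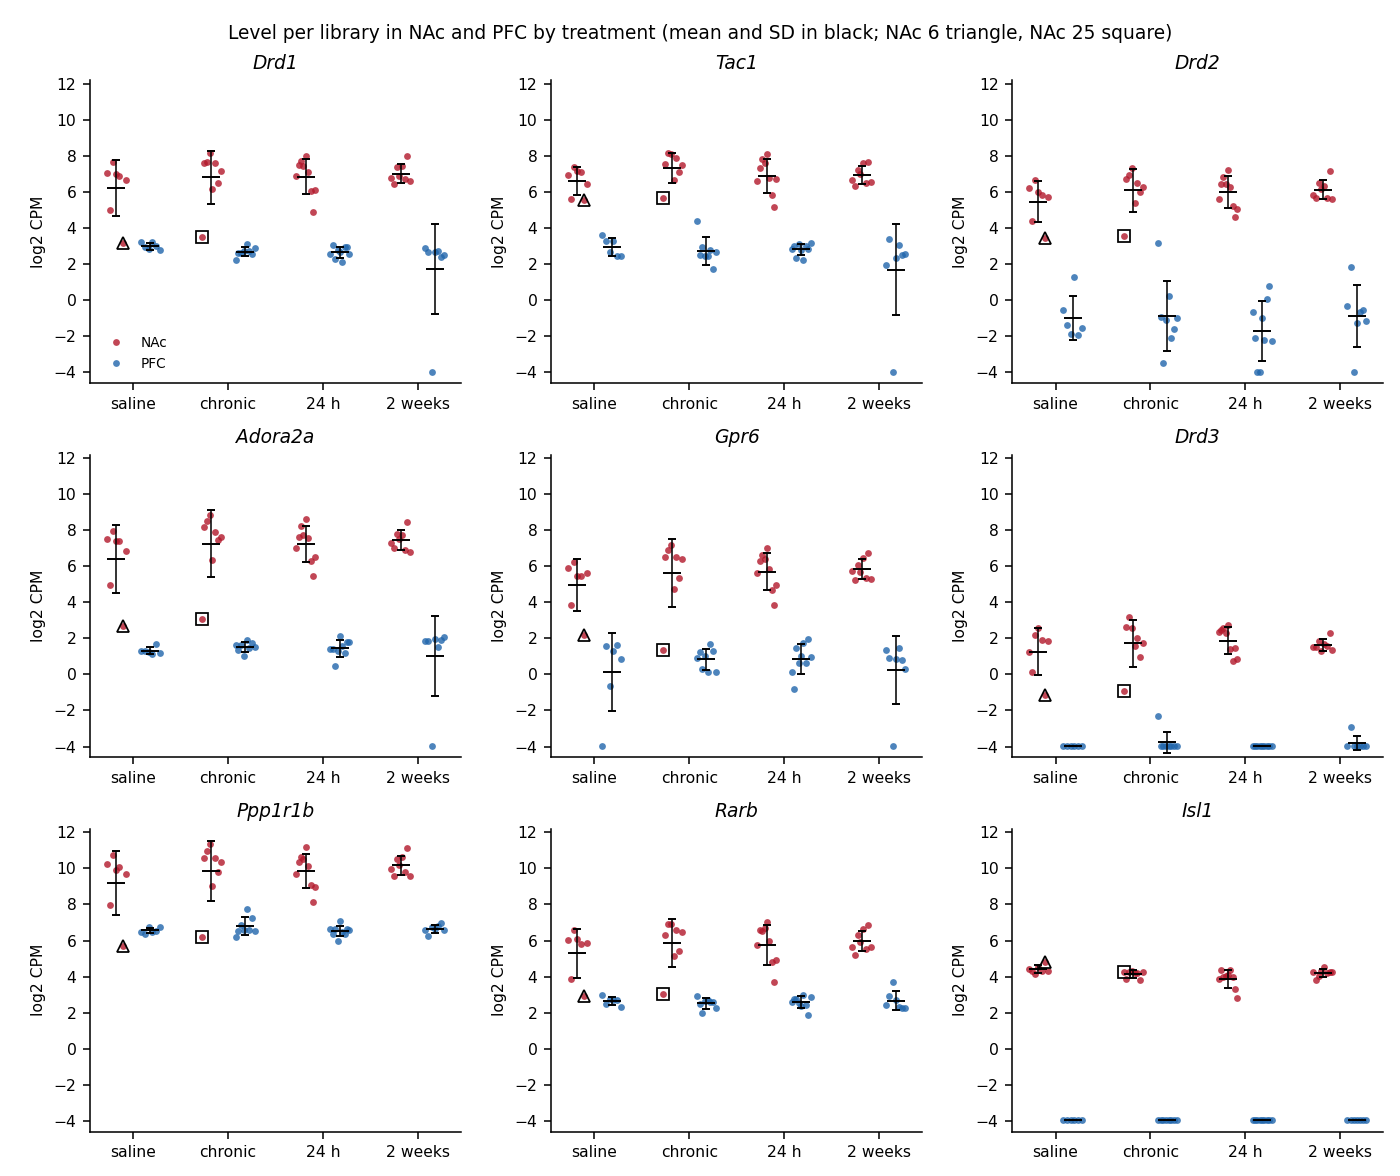
Level of each gene in log2 CPM (vertical axis) by treatment (horizontal axis) in NAc (red) and PFC (blue), 1 point per library, with the mean and SD in black; the NAc libraries with numbers 6 and 25 have a triangle and a square. Isl1 was at 0 counts (drawn at -3.96) in all 30 PFC libraries and kept within 2.83 to 4.83 in NAc, while Drd1, Drd2, Drd3, Adora2a, Ppp1r1b, Gpr6 and Rarb were lowest in libraries 6 and 25 and Tac1 was lowest in library 23.

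Over all 62 libraries the regions still overlapped for some genes. For Drd1 and Gpr6, 1 of 32 NAc libraries was at or below the highest PFC library, and for Ppp1r1b and Rarb 2 were. For Rarb the highest PFC library was number 10, at 3.68 log2 CPM from 66 counts. In the PFC groups other than 2 weeks Rarb reached at most 2.98, below NAc library 25 at 3.04. Drd2, Drd3, Adora2a, Tac1 and Isl1 did not overlap. Of these, Drd2, Drd3 and Isl1 reached the low-count limit of the saline test in NAc alone. The share of all genes without overlap was not counted, so the list is description. In NAc the order of the levels per exon length was Ppp1r1b, Adora2a, Tac1, Drd1, Gpr6, Drd2, Rarb, Isl1 and Drd3, from a median of 379 RPKM to 1.89 RPKM. Between them lay 59.2 for Adora2a, 38.9 for Tac1, 34.1 for Drd1, 29.3 for Gpr6, 26.6 for Drd2, 11.8 for Rarb and 4.77 for Isl1. Ppp1r1b was above Adora2a, and Drd2 above Rarb, in 32 of 32 libraries. The closest neighbours were Tac1 and Drd1, in that order in 21 of 32 libraries, and the neighbours Gpr6 and Drd2, in that order in 25. Their ranges overlapped, so the order of these neighbours varied between libraries. In PFC, Ppp1r1b had a median of 32.7 RPKM, and each of the other 8 was under 2.

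Other genes of the same pathways were followed through lists. Of 18 tested dopamine signalling genes, 10 were higher and 3 lower in NAc of saline mice, with a median log2 difference of 1.03, and 5 of the 10 are also in the striatal reference list. Rgs9, a striatal regulator of G protein signals, differed by 4.26 ± 0.48 and Pde10a, a phosphodiesterase of cyclic nucleotides, by 3.21 ± 0.47 (SE). Both tested genes of the indirect-pathway list were higher, Penk (enkephalin precursor) by 4.22 ± 0.38 and Sp9 by 2.02 ± 0.18. Of 5 direct-pathway genes, 3 were higher and 1 lower. Slc35d3 differed by 4.30 ± 0.45 and Pdyn, the dynorphin precursor, by 2.32 ± 0.34, while Eya1 was lower by -1.61 ± 0.19 and was named after its value was seen. Of 12 retinoid genes, 2 were higher, 6 lower and 4 not called, where 24.1% of all genes tested were lower in NAc. The higher ones were Rxrg, a partner receptor of Rarb, at 5.35 ± 0.33 and the retinoic acid binding protein Crabp1 at 6.18 ± 0.52. Of 10 striatal transcription factor genes, 9 were higher, including Dlx6 at 2.71 ± 0.14.

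The second question was how evenly the NAc punches captured these genes. The spread between NAc libraries of the same group was large for 8 of the 9. In saline mice the highest library exceeded the lowest 22.3-fold in CPM for Drd1, 9.36-fold for Drd2 and 15.3-fold for Drd3. The ratio was 38.4 for Adora2a, 32.4 for Ppp1r1b, 16.7 for Gpr6 and 12.8 for Rarb, but 3.67 for Tac1 and 1.60 for Isl1. In each of these saline ranges but that of Isl1, library 6 was the lowest. For the other 8 genes the ratio was lowest at 2 weeks, from 2.06 for Drd3 to 3.21 for Adora2a. The widest group was chronic morphine for Drd1, Drd2, Drd3, Adora2a, Ppp1r1b, Gpr6 and Rarb, up to 57.6-fold for Gpr6. Library 25 was the lowest chronic morphine library for each of these genes and so set these ratios. Tac1 and Isl1 were widest at 24 h, at 7.62-fold and 2.96-fold.

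A striatal reference score, the mean log2 CPM of 10 genes outside the 9 (among them Rgs9, Pde10a, Adcy5, Scn4b, Gng7, Rasd2, Syndig1l, Rxrg and Actn2), was used to follow the striatal RNA in each library. It ran from 5.40 to 9.22 in NAc with a median of 8.02, and from 2.60 to 5.08 in PFC. The 2.60 was that of PFC library 10, and the lowest other PFC library was at 4.36. As deviations from the means of treatment and sex over 32 NAc libraries, Drd2 followed the score with r = 0.990 (rho = 0.987). Drd1 had r = 0.973 (rho = 0.955), Adora2a 0.972 (0.969), Ppp1r1b 0.971 (0.964), Rarb 0.958 (0.949), Gpr6 0.953 (0.940), Tac1 0.933 (0.941) and Drd3 0.886 (0.896). Each of these 8 had a permutation p of 1e-05 for r and for rho, the smallest that the resamples can give, and an adjusted p of 1.8e-05 for r and 2e-05 for rho over 16 relations. Isl1 did not follow the score, with r = -0.01 (permutation p = 0.956, adjusted p = 0.956) and rho = -0.03 (permutation p = 0.865, adjusted p = 0.865). Without libraries 6 and 25, the farthest from the median score, r was 0.959 for Drd1, 0.983 for Drd2, 0.987 for Adora2a, 0.976 for Ppp1r1b, 0.916 for Rarb, 0.931 for Gpr6, 0.912 for Tac1, 0.761 for Drd3 and 0.261 for Isl1. The relation of the 8 genes therefore did not rest on those libraries. All values of a library share its depth and its scaling factor.

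**Figure D2:**
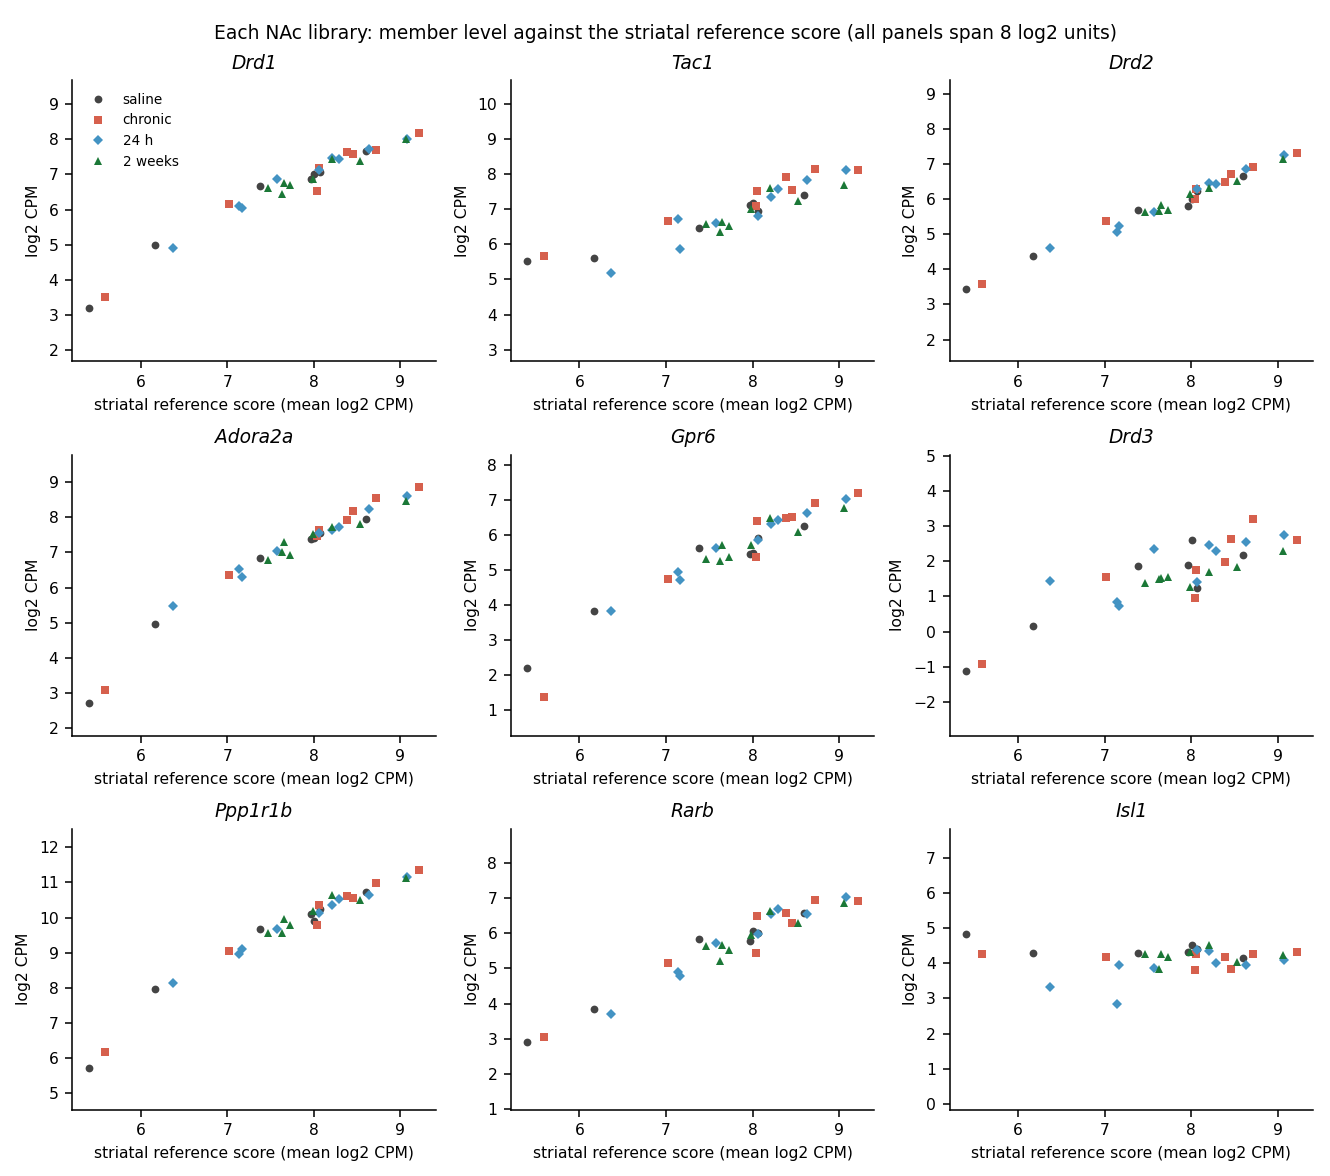
Log2 CPM of each gene (vertical axis, 8 log2 units in every panel) against the striatal reference score (horizontal axis, mean log2 CPM of 10 genes) in the 32 NAc libraries, with symbols for the 4 treatments. Drd1, Tac1, Drd2, Adora2a, Gpr6, Drd3, Ppp1r1b and Rarb rise along a line on which the treatments mix, and Isl1 is flat.

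Over all 32 NAc libraries the genes differed in how steeply they followed the score. Per unit of score, Adora2a changed by 1.48 log2 units, Ppp1r1b by 1.35, Gpr6 by 1.34, Drd1 by 1.25 and Rarb by 1.14. Drd2 and Drd3 changed by 0.991 and 0.998, Tac1 by 0.76 and Isl1 by 0.00. The SD of Drd2 within treatment and sex was 0.818 log2 units and fell to 0.113 after a line on the score was removed. For Drd1 it went from 1.05 to 0.244, for Adora2a from 1.24 to 0.293, for Ppp1r1b from 1.14 to 0.270, for Tac1 from 0.664 to 0.238 and for Drd3 from 0.921 to 0.427. For Isl1 it was 0.265 before and after. The score took up most of the spread of 8 genes and none of that of Isl1.

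**Figure D3:**
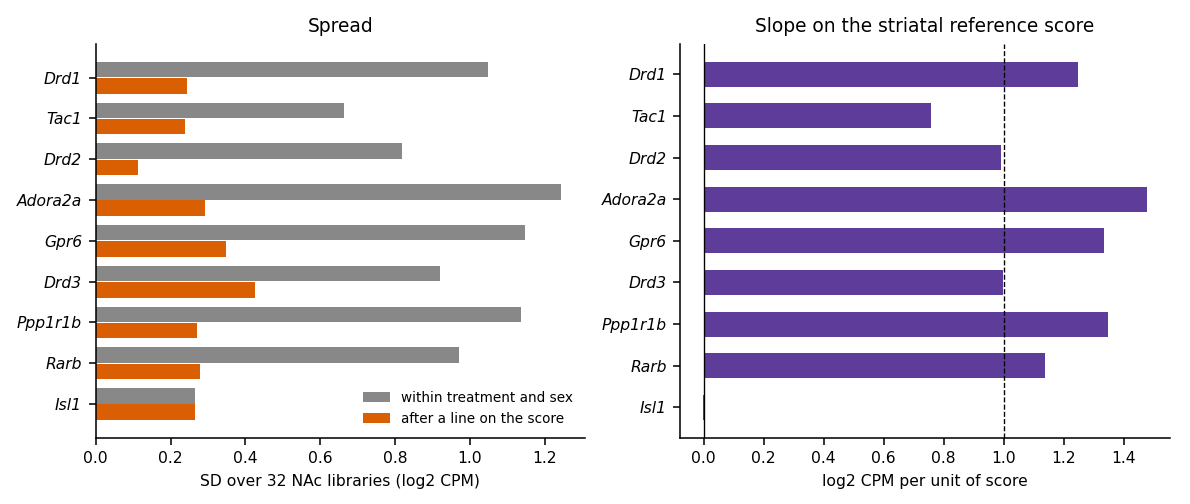
Left, SD over the 32 NAc libraries in log2 CPM within treatment and sex (grey) and after a line on the striatal reference score was removed (orange); right, slope of each gene on the score, with a dashed line at 1. Drd2 fell from 0.818 to 0.113, and Isl1 stayed at 0.265 with a slope near 0. Without libraries 6, 23 and 25 (not drawn) the slope of Adora2a was 1.15 in place of 1.48.

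Between the 9 genes there are 36 pairs. The 28 pairs without Isl1 had r from 0.818 (Drd3 with Tac1) to 0.995 (Adora2a with Ppp1r1b), with a median of 0.963. Their rho ran from 0.850 to 0.989, and each pair had a permutation p of 1e-05 for r, an adjusted p of 1.3e-05 for r and for rho. Markers of opposite pathways rose and fell together: Drd1 with Drd2 had r = 0.980 and Drd1 with Adora2a 0.986. The 8 pairs with Isl1 had r from -0.09 to 0.08 and rho from -0.09 to 0.04, with adjusted p of at least 0.776 for r and 0.798 for rho. Without libraries 6 and 25 the first set had r from 0.747 to 0.985 and the pairs with Isl1 from 0.234 to 0.415. So 8 genes moved together among NAc libraries, and the value near 0 for Isl1 rested in part on libraries 6 and 25.

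Over the 13095 genes with a mean of at least 1 log2 CPM in NAc, the genes most like each of the 9 were taken from the 3 with the highest r over the 32 libraries, as deviations from the means of treatment and sex. Gng7, Adcy5 and Syndig1l among them are also in the reference score. For Drd1 they included Gng7 (0.993) and Ankrd63 (0.991), and for Drd2 they included Adcy5 (0.993) and Syndig1l (0.988). Those of Adora2a included Ido1 (0.984) and Sh3rf2 (0.982), those of Ppp1r1b included Gng7 (0.987) and Penk (0.985), and Gpr6 had Penk (0.991), Gng7 (0.990) and Serpina9 (0.989). Rarb had Ankrd63 (0.988), Bcl11b (0.987) and Caln1 (0.986). Those of Tac1 were other genes, namely Lmo4 (0.979), Gucy1b1 (0.975) and Tshz1 (0.970), and those of Drd3 were Strip2 (0.941), Neto1 (0.932) and Sh3rf2 (0.929). For Isl1 the closest was Six3, another homeodomain gene, at 0.799, followed by Tvp23b (0.654) and Gins4 (0.652).

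Libraries 6 and 25 had the lowest scores in NAc. Library 6 (saline, male) had 276 counts of Drd1, 331 of Drd2, 198 of Adora2a and 1596 of Ppp1r1b, against NAc medians of 4165, 2116.5, 5610.5 and 35754.5. Library 25 (chronic morphine, female) had 394, 410, 293 and 2525 counts of the same genes. Both had far less of these striatal genes than the other 30 libraries, and in both Drd1 was below Drd2 in log2 CPM. Isl1, in contrast, was at 4.83 log2 CPM in library 6, the highest NAc value, and at 4.28 in library 25, near the NAc median of 4.25. Tac1 was at 5.53 and 5.68 log2 CPM there, 2.35 and 2.16 above Drd1, where the median library had Tac1 0.11 above Drd1. Six3 was at 6.26 and 6.20, beside a median of 6.23.

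The same libraries carried RNA of hypothalamic neuropeptide genes, which were chosen from the hypothalamic list after their values were seen. Pmch, the precursor of melanin-concentrating hormone, was at 7.79 log2 CPM in library 6 and 10.10 in library 25, and Hcrt, the precursor of orexins, was at 6.57 and 8.39. Their NAc medians were -0.40 and -2.79. Library 23 (24 h, male) also had Pmch at 8.11 and Hcrt at 4.98, together with low members, for example Drd1 at 4.92 and the lowest NAc value of Tac1 at 5.19. Pmch was also at 6.45 in library 22 and 6.27 in library 9, in which Drd1 was at 6.04 and 6.44. Library 2 (saline, female) had low members as well, with Drd1 at 4.99 and Adora2a at 4.95, but Pmch was at -0.97 and Hcrt at -3.38. The summed level of the 6 hypothalamic genes ran from 11.98 to 462 CPM in saline, 11.3 to 1562 in chronic morphine, 6.70 to 464 at 24 h and 10.004 to 98.9 at 2 weeks. Low striatal genes and high hypothalamic genes thus met in libraries 6, 25 and 23 but not in library 2, and the part of other tissue in the low values was not tested.

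Library 24 (24 h, male) differed in another way. It had the cortical genes Slc17a7 at 9.22 log2 CPM and Neurod2 at 5.07, beside NAc medians of 3.18 and -0.57, and the summed level of the 8 cortical genes was 678 CPM, against at most 77.3 in the groups other than 24 h. Its Isl1 was the lowest of all NAc libraries at 2.83, with Drd1 at 6.11. Library 28 (chronic morphine, male) was the highest for Drd1 at 8.18, Drd2 at 7.32, Adora2a at 8.87, Ppp1r1b at 11.35 and Gpr6 at 7.19. Pmch was at -1.98 there, and Neurod2, at -3.38, was the lowest of NAc.

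**Figure D4:**
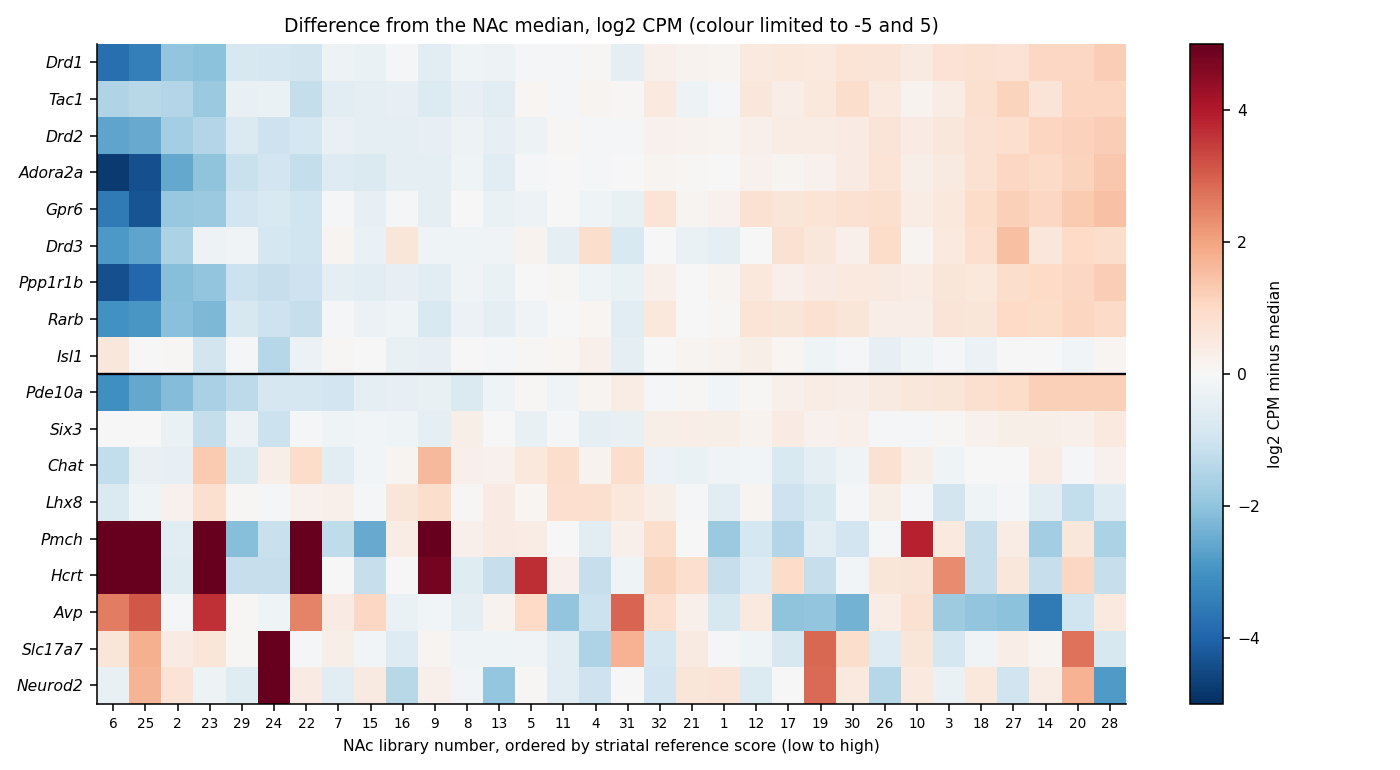
Difference of each gene (rows) from its median over the 32 NAc libraries in log2 CPM, with libraries (columns) ordered by the striatal reference score; the 9 genes are above the line and 9 marker genes below it. Libraries 6 and 25 at the left are low for 8 of the 9 genes and high for Pmch and Hcrt, and library 24 is high for Slc17a7 and Neurod2.

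In PFC the members showed no such common gradient. Drd1 had r = 0.876 with the score over 30 PFC libraries (permutation p = 0.00017, adjusted p = 0.00025), but rho was 0.149 (permutation p = 0.427, adjusted p = 0.526) and r was -0.27 without libraries 10 and 25. Tac1 went from r = 0.916 to 0.01 and Adora2a from 0.866 to -0.15 when the same libraries were left out, so these relations rested on them. For Drd2, r was 0.648 and rho 0.587 (permutation p = 0.00019 and 0.00078, adjusted p = 0.00025 and 0.0014), and r was 0.210 without them. Ppp1r1b (r = -0.18, permutation p = 0.314, adjusted p = 0.335) and Rarb (r = -0.35, permutation p = 0.057, adjusted p = 0.065) had no relation that passed the test, but on log2 CPM not taken as deviations Rarb passed it, with r = -0.49 (permutation test, adjusted p = 0.035). Gpr6 had r = 0.603 (permutation p = 0.0017, adjusted p = 0.0021) and 0.01 without libraries 10 and 25. Drd3 and Isl1 had no or almost no counts in PFC and were left out.

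Drd2 was the most uneven gene in PFC. Library 25 (chronic morphine, female) had 258 counts and library 5 (saline, male) 69, while the PFC median was 11.5 counts. Library 9 (2 weeks, female) was also high, at 1.82 log2 CPM. In library 25 Tac1 was also highest, at 4.40 log2 CPM against a PFC median of 2.73, and Syndig1l of the reference list was at 4.81 against 1.67. Adora2a, at 1.62, and Gpr6, at 0.89, were near their PFC medians of 1.53 and 0.91 there, and Drd1, at 2.25, was the lowest of its group. High Drd2 in that library thus came with Tac1 and Syndig1l and without Drd1, Adora2a or Gpr6. Ppp1r1b was highest in PFC library 29 (chronic morphine, male) at 7.76 log2 CPM, beside a median of 6.58, and Slc17a7 was also highest in that library, at 11.85.

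The third question was whether morphine changed the genes. In NAc, 0 of 9 were called by edgeR in each of the 3 contrasts with saline, where 1.69% of 18382 genes were called under chronic morphine, 0.163% at 24 h and 0.00544% at 2 weeks. At an unadjusted p under 0.05 the counts of members were 0, 1 and 0, and DESeq2 called 0 in each contrast. The median log2 fold change of the 9 genes was 0.54 under chronic morphine, 0.35 at 24 h and 0.35 at 2 weeks, beside medians of -0.01, -0.01 and 0.00 for all genes tested. In each contrast 8 of 9 values were above 0, with Isl1 as the exception. Single libraries moved the medians by over 1.5 times. The chronic median was 0.28 without library 27, 0.34 without 2 or 6, and 0.83 without 3 or 25. At 24 h the median was 0.12 without library 2, 0.16 without 17, 0.17 without 6 and 0.60 without 3, and at 2 weeks it was 0.12 without 2, 0.16 without 6, 0.20 without 10, 0.21 without 14 and 0.63 without 3. The 10 striatal reference genes had 0 calls and a median of 0.51 under chronic morphine.

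Among receptors, Drd1 had 3.51, 7.39 and 8.18 log2 CPM under chronic morphine as lowest, median and highest, beside 3.18, 6.88 and 7.66 in saline. At 24 h it had 4.92, 7.13 and 8.0 and at 2 weeks 6.44, 6.81 and 8.0. The groups overlapped throughout, and 5 of 8 chronic libraries were above the saline median. Its log2 fold change under chronic morphine was 0.47 ± 0.50 (SE, 95% interval -0.51 to 1.46, edgeR adjusted p = 0.711). Drd2 had medians of 5.81 in saline, 6.39 under chronic morphine, 6.28 at 24 h and 6.00 at 2 weeks, with a chronic change of 0.58 ± 0.42 (interval -0.24 to 1.40, edgeR adjusted p = 0.551). Drd3 had a chronic change of 0.52 ± 0.46, and at 2 weeks its change was 0.04 ± 0.46, which turned to -0.14 without library 2 or 6, -0.01 without library 10 and -0.06 without library 14. Adora2a changed by 0.76 ± 0.57 and Gpr6 by 0.79 ± 0.53 under chronic morphine (edgeR adjusted p = 0.572 and 0.521), and 6 of 8 and 5 of 8 chronic libraries were above the saline median. None of these values was larger than the spread between libraries. Without library 27 (chronic morphine) the chronic changes were 0.28 for Drd1, 0.38 for Drd2, 0.21 for Drd3, 0.48 for Adora2a and 0.51 for Gpr6. Leaving out 1 of the saline libraries 2, 3 and 6 or chronic library 25 also moved Drd1, between 0.25 and 0.77, and Drd3, between 0.34 and 0.87, by over 1.5 times, and Drd2 was 0.38 without library 2.

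Of the other genes, Tac1 had 5.68, 7.54 and 8.15 log2 CPM as lowest, median and highest under chronic morphine, and 5.53, 6.95 and 7.41 in saline. Its chronic change was 0.71 ± 0.35 (SE, unadjusted p = 0.0539 and edgeR adjusted p = 0.343), and 6 of 8 chronic libraries were above the saline median. Ppp1r1b changed by 0.54 ± 0.53 and Rarb by 0.48 ± 0.48 under chronic morphine (edgeR adjusted p = 0.687 and 0.692). Without library 27 the chronic change was 0.46 for Tac1, 0.25 for Ppp1r1b and 0.15 for Rarb. Without library 2, 3, 6 or 25, Ppp1r1b ran from 0.31 to 0.83 and Rarb from 0.26 to 0.78. Isl1 was the 1 gene below saline in each contrast, at -0.26 ± 0.15 under chronic morphine, -0.46 ± 0.14 at 24 h and -0.22 ± 0.15 at 2 weeks. At 24 h it had 2.83, 3.97 and 4.39 log2 CPM as lowest, median and highest, and 4.15, 4.32 and 4.83 in saline. Of the 9 libraries at 24 h, 7 were under the saline median and 2 lay within the saline range. Its unadjusted p was 0.0034 and its edgeR adjusted p 0.191, with 0.073 (without library 17) to 0.453 over the single libraries left out in turn and 0.090 in DESeq2. The change was -0.37 ± 0.12 without library 24, the library with high cortical genes.

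With the striatal reference score as a covariate, the chronic change of Drd1 went from 0.47 ± 0.50 to -0.14 ± 0.14 and that of Ppp1r1b from 0.54 ± 0.53 to -0.16 ± 0.15. Drd2 went to 0.06 ± 0.07, Adora2a to 0.00 ± 0.16, Drd3 to 0.06 ± 0.26, Gpr6 to -0.05 ± 0.20 and Rarb to -0.06 ± 0.16. Tac1 kept 0.33 ± 0.13 (edgeR adjusted p = 0.179) and Isl1 stayed at -0.24 ± 0.15. The 9 genes were again without a call in all 3 contrasts. The errors of Drd1, Drd2, Adora2a and Ppp1r1b thus became smaller and their values moved to near 0, whereas Isl1 kept both. The score had group means of 7.37 in saline, 7.93 under chronic morphine, 7.83 at 24 h and 8.03 at 2 weeks, so it moved in the same direction as the 8 genes. A covariate of striatal genes would also take up a change shared by all of them. Without libraries 6 and 25 the chronic values were 0.56 for Drd1, 0.68 for Drd2, 0.85 for Adora2a, 0.81 for Tac1 and 0.89 for Gpr6, with 0 calls.

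**Figure D5:**
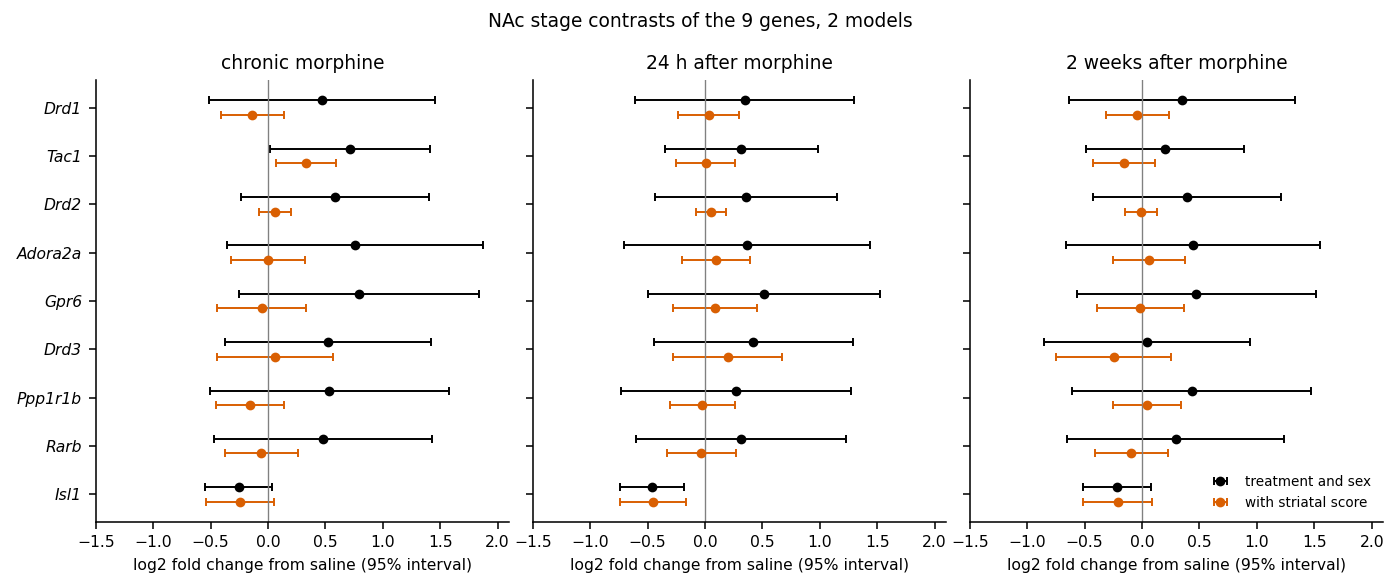
Log2 fold change from saline in NAc (horizontal axis, with 95% intervals) of the 9 genes at the 3 stages, from the model of treatment and sex (black) and with the striatal reference score added (orange). With the score, the values of 7 genes under chronic morphine lie within 0.16 of 0, Tac1 is at 0.33 and Isl1 at -0.24, and no gene was called.

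In PFC, 7 of the 9 genes could be tested, and Drd3 and Isl1 were under the limit on low counts. edgeR called 0 of 7 under chronic morphine (0.417% of 17966 genes), at 24 h (0.0779%) and at 2 weeks (0.00557%). At an unadjusted p under 0.05 there were 0 in each contrast, and DESeq2 called 0 as well. Drd1 had medians of 2.98 log2 CPM in saline, 2.67 under chronic morphine, 2.66 at 24 h and 2.66 at 2 weeks. Its changes were -0.35 ± 0.30, -0.34 ± 0.29 and -0.56 ± 0.31, the last of which was -0.32 ± 0.15 without library 10. The direction of Drd2 under chronic morphine turned on a single library, with 1.02 ± 0.87 for all libraries and -0.85 ± 0.88 without library 25. Ppp1r1b changed by 0.23 ± 0.17 under chronic morphine, 0.00 ± 0.16 at 24 h and 0.09 ± 0.17 at 2 weeks, and Rarb by -0.12 ± 0.21, -0.05 ± 0.20 and 0.08 ± 0.21. Adora2a at 2 weeks was at 0.33 ± 0.35, and at 0.56 ± 0.23 without library 10. Among the genes of the lists, Chrm4, a muscarinic receptor gene of direct-pathway neurons, was the 1 called gene under chronic morphine in PFC, at -0.73 ± 0.17 (SE, edgeR adjusted p = 0.0409), and no gene of the lists was called in the NAc contrasts.

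Whether morphine acted differently in the regions was tested over all 62 libraries. edgeR called 0 of the 7 genes with enough PFC counts at each stage, where it called 0.0311% of 19266 genes under chronic morphine, 0.0208% at 24 h and 0.00519% at 2 weeks, and 0 of the 7 had an unadjusted p under 0.05. DESeq2 was not run for this test or for the tests of sex. The chronic effect in NAc minus that in PFC was 0.84 ± 0.59 on the log2 scale for Drd1, 0.75 ± 0.49 for Tac1 and 0.33 ± 0.58 for Ppp1r1b. Its 95% intervals ran from -0.32 to 2.00 for Drd1 and from -0.82 to 1.47 for Ppp1r1b, which covers a 2-fold difference. Drd3 and Isl1 could not be called in this test, because PFC held 6 counts and 0 counts of them, and no value is given.

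Sex made no called difference for any of these genes. In NAc, edgeR called 0 of 9 between females and males (0.0598% of 18382 genes) and 0 of 9 for a sex difference in the effects of morphine (0.0544%). In PFC the counts were 0 of 7 for females against males (0.0334% of 17966 genes) and 0 of 7 for the sex difference in effects (0% of genes). Members with an unadjusted p under 0.05 numbered 0, 0, 0 and 1 in the same order. That 1 was Drd2 in PFC (unadjusted p = 0.0172, edgeR adjusted p = 0.857), whose female chronic group held library 25 with 258 of the 270 counts of its 3 libraries. Drd1 differed between females and males by 0.25 ± 0.34 in NAc and -0.24 ± 0.21 in PFC, and Drd2 in NAc by 0.34 ± 0.28.

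The last comparison was the balance of the 2 main dopamine receptors, as Drd1 minus Drd2 in log2 CPM in NAc. It ran from -0.26 to 1.07 in saline with a median of 0.97, from -0.06 to 1.14 under chronic morphine with a median of 0.82, from 0.30 to 1.24 at 24 h and from 0.71 to 1.11 at 2 weeks. The lowest values were those of library 6 at -0.26, library 25 at -0.06 and library 23 at 0.30. The mean was 0.750 ± 0.472 in saline (SD, n = 7), 0.718 ± 0.360 under chronic morphine (n = 8), 0.880 ± 0.263 at 24 h (n = 9) and 0.903 ± 0.128 at 2 weeks (n = 8). The differences from saline of -0.03, 0.13 and 0.15 were within the spread between libraries (two-sided exact permutation p = 0.853, 0.525 and 0.537, adjusted over 3 stages 0.853, 0.805 and 0.805). Without libraries 6 and 25 they were -0.09, -0.04 and -0.02. Without the saline library 6 alone they were -0.20, -0.04 and -0.02, and the chronic difference was above 0 without saline library 3, 4, 5 or 7 or chronic library 25, at up to 0.08 (without 25). The direction in each contrast thus turned when 1 library was left out.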

How the data were processed

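RNA was measured in 62 mouse libraries of NAc and PFC. The values are raw read counts per gene as deposited by the authors, not normalized. Per the submitters' processing notes, FastQC, cutadapt, STAR, RSEM, Trimmomatic and HISAT2 were used with the builds GRCm38 and Rnor_6.0. Which tool made the mouse counts, and whether strand was used, is not given in the sources used here. Rows that name no gene held 21.0% of PFC and 22.5% of NAc reads (medians) and 43.1% of PFC library 10, and they were left out of library sizes and tests. Even counts outnumbered odd ones in every library, with medians of 63.6% even in PFC and 62.3% in NAc over counts of 2 to 21. The counts may thus hold steps of 2, and the reason was not tested.

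Of 46078 gene identifiers, 45143 matched a symbol in GENCODE M21, whose GRCm38 coordinates and exon lengths were used. Gpr52 and Pde2a of the lists were unmatched. Levels are log2 CPM with TMM scaling over all 62 libraries and a prior count of 2. RPKM divides CPM by the exon length.

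Groups came from the sample labels. Contrasts used edgeR 4.0.16 (R 4.3.3) with TMM, filterByExpr, the quasi-likelihood test and Benjamini-Hochberg adjustment over all genes tested, with a threshold of 0.05. Treatment and sex were modelled together within a region, and stage effects are means over the sexes. Each of the 3 stages was set against the same saline libraries. Intervals named as 95% intervals are the value ± 1.96 SE, and they are somewhat narrower than the quasi-likelihood test implies. For Tac1 under chronic morphine in NAc the interval was 0.019 to 1.41, although the unadjusted edgeR p was 0.0539. In saline mice a gene had to reach 0.353 CPM in 3 libraries. Correlations used deviations from the means of treatment and sex, with 100000 resamples (scipy 1.17.1, two-sided), and Drd1 minus Drd2 was tested by exact permutation.

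The 9 genes and all lists were chosen with earlier results of these data known. The text names the 9 genes, up to 2 called genes with the largest change from each list, and genes from the 3 most like each of the 9; 1 gene of the lists is not reported here. Genes named after their values were seen are marked as such, and so are Six3, Syndig1l, Slc17a7 and Neurod2 where single libraries are described. Alternatives were median-of-ratios scaling, no low-count filter, DESeq2 1.42.0, the striatal score as a covariate, a replicate block, a prior count of 0.5 and each library left out. Leaving out NAc libraries 6 and 25, or 6, 23 and 25, was chosen after seeing the data.

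On simulated counts for chronic morphine in NAc (18016 genes), edgeR recovered 78% of 50 genes changed 2-fold and 98% of 50 changed 4-fold. In PFC (17691 genes) it recovered 74% and 94%. These shares are over the 50 genes of each kind, and recovery was not tested for the genes described here alone. In NAc the chronic morphine changes of Drd1, Adora2a and Ppp1r1b had an SE of 0.50, 0.57 and 0.53. Their 95% intervals reached 1.46, 1.87 and 1.58 on the log2 scale, which covers a 2-fold rise. The same held for the other genes but Isl1. The missing calls thus do not exclude a 2-fold rise in genes other than Isl1.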

Additional observations from a re-analysis of the deposited data

Results flagged for a closer look

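In each group of 4 to 10 libraries, the gap between the lowest or highest library and its nearest neighbour was divided by the range of the group and set against Dixon's 95% critical value. Of 64 groups tested, 11 passed it, and chance alone flags about 1 in 20 groups. The 9 genes move together, so these groups are not independent.

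NAc library 25 stood below the other 7 chronic morphine libraries for 5 genes, with Drd1 at 3.51 log2 CPM, Adora2a at 3.09, Ppp1r1b at 6.19, Gpr6 at 1.38 and Rarb at 3.04. Its Pmch and Hcrt were the highest of NAc, at 10.10 and 8.39, and their part in the low values was not tested. PFC library 10 stood below the other 2-week libraries for Drd1, Adora2a, Tac1 and Gpr6, each at -3.96 log2 CPM, which is 0 counts. PFC library 25 was the high library of its chronic morphine group for Tac1, at 4.40 log2 CPM. PFC library 6 was the high library of the saline group for Adora2a, at 1.69 log2 CPM, which is 79 counts beside 58 to 79 in the group.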

How the results depend on the processing

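All 9 genes kept their calls in the saline region contrast, and none was called in a stage contrast, under every setting run. Drd2, Drd3 and Isl1 reached the low-count limit in NAc alone, so their kept region calls are no check. The smallest adjusted p of a stage contrast over the settings was 0.073 (Isl1 at 24 h). Over 2551 comparisons of a setting with the reported value, 2431 kept direction and call, 65 reversed, 54 moved and 1 became stronger.

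The share of all tested genes called moved more. For chronic morphine in NAc (1.69%) it was 0.642% with no low-count filter, 3.74% in DESeq2, 3.57% with the striatal score as covariate, and 0.636% (without library 27) to 3.00% (without library 25) with single libraries left out. At 24 h in NAc (0.163%) it was 0.0486%, 0.908% and 0.450% in the same order, 0.0905% without libraries 6 and 25, 0.0480% without 6, 23 and 25, and 0.0159% (without library 1) to 0.267% (without library 17). At 2 weeks in NAc (0.00544%) it was 0.00347%, 0.223% and 0.0582% in that order, and 0.00530% to 0.0272% with single libraries left out. In PFC, chronic morphine (0.417%) gave 0.974% in DESeq2 and 0.249% (without library 1) to 0.960% (without library 10). At 24 h (0.0779%) it gave 0.256% in DESeq2, 0.135% with the score and 0.0596% to 0.162% (without library 10), and at 2 weeks (0.00557%) 0% with no filter, 0.0668% in DESeq2 and 0% to 0.00559%. The saline region contrast (49.1% in both directions) gave 30.7% with no filter, where 26451 genes were tested in place of 16562. Beyond the number of genes tested, the cause was not tested.

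With the score as covariate, log2 changes in NAc reversed under chronic morphine for Drd1 (-0.14), Ppp1r1b (-0.16), Gpr6 (-0.053) and Rarb (-0.058), at 24 h for Ppp1r1b (-0.023) and Rarb (-0.031), and at 2 weeks for Drd1 (-0.041), Drd2 (-0.011), Drd3 (-0.25), Tac1 (-0.16), Gpr6 (-0.014) and Rarb (-0.092). In PFC they reversed for Drd2 under chronic morphine (-0.015), Ppp1r1b at 24 h (0.0094) and Rarb at 2 weeks (-0.031). Drd3 at 2 weeks in NAc was -0.14 both without libraries 6 and 25 and without 6, 23 and 25.

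With single libraries left out, Drd3 at 2 weeks in NAc ran from -0.14 to 0.38. In PFC under chronic morphine, Drd2 ran from -0.85 to 1.98, Tac1 from -0.42 to 0.15 and Gpr6 from -0.14 to 1.12. At 24 h Drd2 ran from -1.60 to 0.10, Ppp1r1b from -0.097 to 0.078 and Rarb from -0.13 to 0.013, and at 2 weeks Drd2 from -0.32 to 1.48, Gpr6 from -0.24 to 1.01 and Rarb from -0.11 to 0.21. Drd1 minus Drd2 against saline in NAc ran from -0.20 to 0.079 under chronic morphine, -0.038 to 0.20 at 24 h and -0.016 to 0.21 at 2 weeks, and was -0.038 and -0.016 at 24 h and 2 weeks without libraries 6 and 25. The r of Isl1 with the score in NAc was 0.035 on log2 CPM as they are and 0.192 without libraries 6, 23 and 25, and that of Rarb in PFC was -0.49 on log2 CPM as they are, where it passed the test (permutation test, adjusted p = 0.035; 0.065 as reported).

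NAc and PFC libraries share numbers, and the labels do not say what a number marks. Same-numbered libraries had deviations correlated at 0.0077 to 0.216 over 30 pairs, 5 of them over 0.1. Of the 30, 24 correlated best with their own number among the 3 to 5 numbers of the same treatment and sex. That is more than random picks among so few numbers would give. The reported region tests treated the libraries as unpaired. With the number as a replicate block, the saline region contrast called 43.1% of tested genes (49.1% without it), 9 of the 9 genes among them, with Drd1 at 3.21. Of these, Drd2, Drd3 and Isl1 had to differ. In the test of a region difference the replicate block gave 0.0202% under chronic morphine (0.0311% without it), 0.0101% at 24 h (0.0208%), 0% at 2 weeks (0.00519%) and 0.19 for Drd2 under chronic morphine (-0.41).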
